A study of Mus musculus with 36 samples.

Results

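Liver RNA was measured for 9 Rgs genes, which encode regulators of G protein signalling, and for Mtnr1a, which encodes a melatonin receptor. The 10 genes were chosen by values already seen on these arrays, and each was read by the probes that carry a listed symbol in the array files. These were 22 of 56605 probes, for 10 of 37061 genes on the array. All 10 genes were kept by the filter on dim probes, which left 24097 genes for testing, and 17 of the 22 probes passed it. Rgs16 was listed for its genotype difference between fasted and CL316243-treated mice, and Mtnr1a for its genotype difference after CL316243. Those values are given as descriptions without a test, and the other genes of the list were also chosen with results of these data in view.

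The arrays came from 36 male mice of the C57Bl/6J strain, 6 per group, and each mouse gave 1 array. CTRL mice were the controls, and AAKO mice lacked adipose triglyceride lipase (ATGL), the enzyme that starts triglyceride breakdown, in white adipose tissue. Each genotype was fed freely, fasted for 24 h, or fed and gavaged with CL316243 (3 mg/kg) at Zeitgeber time 10 (ZT10, hours after lights on). CL316243 activates the β3 adrenergic receptor, which adipocytes carry. The sources describe a gavage with vehicle for the CL316243 groups alone. Drug and gavage thus cannot be told apart where CL316243-treated mice are compared with fed or fasted mice. All mice were killed at ZT16. The driver of the deletion, the alleles carried by CTRL mice and the ages are not given in the sources used here. The fed groups form experiment 2 and the fasted and CL316243 groups form experiment 1, so fed mice and experiment cannot be told apart where a condition is compared with feeding. Comparisons of genotypes within a condition lie within 1 experiment.

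A G protein-coupled receptor acts by loading the α subunit of a G protein with GTP. RGS proteins bind the active α subunit and speed up its GTP hydrolysis, which ends the signal, and most of them act on the Gi and Gq classes. By sequence they fall into families. Rgs1, Rgs2, Rgs3, Rgs4, Rgs5 and Rgs16 belong to the R4 family. Rgs10, Rgs12 and Rgs14 belong to the R12 family, in which Rgs12 and Rgs14 carry further scaffold domains. The MT1 receptor encoded by Mtnr1a couples to Gi and lowers cAMP on binding melatonin, the hormone of the dark phase. In mouse liver, Rgs16 is known as a gene of periportal hepatocytes whose RNA follows feeding and the daily cycle.

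The sequences before the transcription start are shown for the 3 genes that carried the largest genotype differences, because motifs of clock factors and of cAMP signalling were searched there. Each runs 5′ to 3′ on the gene's strand from 250 bases before the start to 50 bases after it, from RefSeq for GRCm38.p6, and capitals mark a motif match. Mtnr1a lies at chr8:45068857-45069156 on the plus strand, Rgs2 at chr1:144004100-144004399 on the minus strand, and Rgs16 at chr1:153740103-153740402 on the plus strand.
Mtnr1a: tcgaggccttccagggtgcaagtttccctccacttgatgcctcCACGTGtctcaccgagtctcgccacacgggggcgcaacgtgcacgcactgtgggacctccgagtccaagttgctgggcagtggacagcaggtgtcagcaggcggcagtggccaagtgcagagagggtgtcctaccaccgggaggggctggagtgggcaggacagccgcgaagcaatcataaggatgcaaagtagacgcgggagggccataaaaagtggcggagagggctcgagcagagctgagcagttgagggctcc
Rgs2: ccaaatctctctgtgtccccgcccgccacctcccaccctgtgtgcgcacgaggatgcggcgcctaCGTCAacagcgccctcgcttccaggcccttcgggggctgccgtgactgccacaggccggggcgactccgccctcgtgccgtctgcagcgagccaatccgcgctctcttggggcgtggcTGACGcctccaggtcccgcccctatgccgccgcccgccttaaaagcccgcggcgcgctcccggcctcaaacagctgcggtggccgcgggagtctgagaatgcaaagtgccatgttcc
Rgs16: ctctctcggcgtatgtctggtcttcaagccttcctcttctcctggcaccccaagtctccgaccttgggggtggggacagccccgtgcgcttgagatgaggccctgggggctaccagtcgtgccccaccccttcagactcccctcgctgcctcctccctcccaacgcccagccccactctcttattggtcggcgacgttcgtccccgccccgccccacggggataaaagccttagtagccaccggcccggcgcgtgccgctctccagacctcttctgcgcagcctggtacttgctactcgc
The promoter table held 10 promoters for 8 of the 10 genes. The E-box CACGTG, the cAMP response element TGACGTCA, its core TGACG and the D-box TTATGNAA were searched on both strands, and each full cAMP response element also holds its core. The E-box occurred in Mtnr1a, from 207 to 202 bases before the start, and in 7.15% of all 32851 promoters. The core TGACG occurred in Rgs2 (from 185 to 181 bases before the start on the opposite strand and from 67 to 63 bases before it), in Rgs4 and in 1 of the promoters of Rgs12, and in 20.8% of all promoters. No listed gene had the full cAMP response element (1.79% of promoters) or the D-box (3.38%) in this window. A match describes letters in the window and was not set against any value.

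Levels below are processed Cy3 intensities on the log2 scale, centred on each array's 75th percentile, so 0 is the brightness of that percentile and 1 unit is a doubling. They compare 1 probe between arrays, and levels of different probes are not compared. A gene is called changed at an adjusted p under 0.05 in a limma fit over all 36 arrays and all tested genes. Errors of fold changes are standard errors (SE) and errors of groups are SDs over 6 mice, and a p-value measures the spread between these mice only. Whole liver was used, so fewer cells of a type and less RNA per cell cannot be told apart. All 8 hepatocyte markers on the list were above the filter, and their summed signal lay between 3900 and 5110 times the 75th percentile on every array. The brightest markers weigh most in this sum, and single markers changed. Between genotypes 3 were called higher and 5 lower in fasted AAKO mice (differences from -0.53 to 1.16), where 21.9% of all genes were called higher and 27.3% lower. In CTRL mice 3 were called lower after CL316243 than in fed mice (differences down to -0.98), where 23.1% of all genes were called in either direction. Probes well above background numbered between 33130 and 37200 per array. The array of CTRL fasted replicate 2 gave the highest or the lowest value of its group for 7 of the 10 genes. Among the results recomputed without it, the call changed for Rgs4 and Rgs5 in 1 comparison each, given below.

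Mtnr1a RNA was lower in AAKO than in CTRL liver in every condition, and the difference was larger in fasted than in fed mice. Its brightest probe lies at 46173783 to 46173842 on chromosome 8 (mm9). CTRL mice had values from -2.76 to -1.67 when fed (median -2.25), from -0.21 to 1.09 when fasted (median 0.72) and from -0.47 to 0.22 after CL316243 (median -0.25). AAKO mice had values from -4.41 to -3.23 when fed (median -3.85), from -3.96 to -2.06 when fasted (median -3.09) and from -5.48 to -3.65 after CL316243 (median -4.52). The genotypes did not overlap in any condition. From the highest to the lowest, the group means were 0.61 ± 0.47 in CTRL fasted, -0.17 ± 0.31 in CTRL CL316243, -2.25 ± 0.46 in CTRL fed, -3.12 ± 0.72 in AAKO fasted, -3.87 ± 0.41 in AAKO fed and -4.51 ± 0.66 in AAKO CL316243 (SD, n = 6 each). In this order the arrays of CTRL fasted and CTRL CL316243 overlapped, as did those of CTRL fed with AAKO fasted, AAKO fasted with AAKO fed, and AAKO fed with AAKO CL316243.

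**Figure D1:**
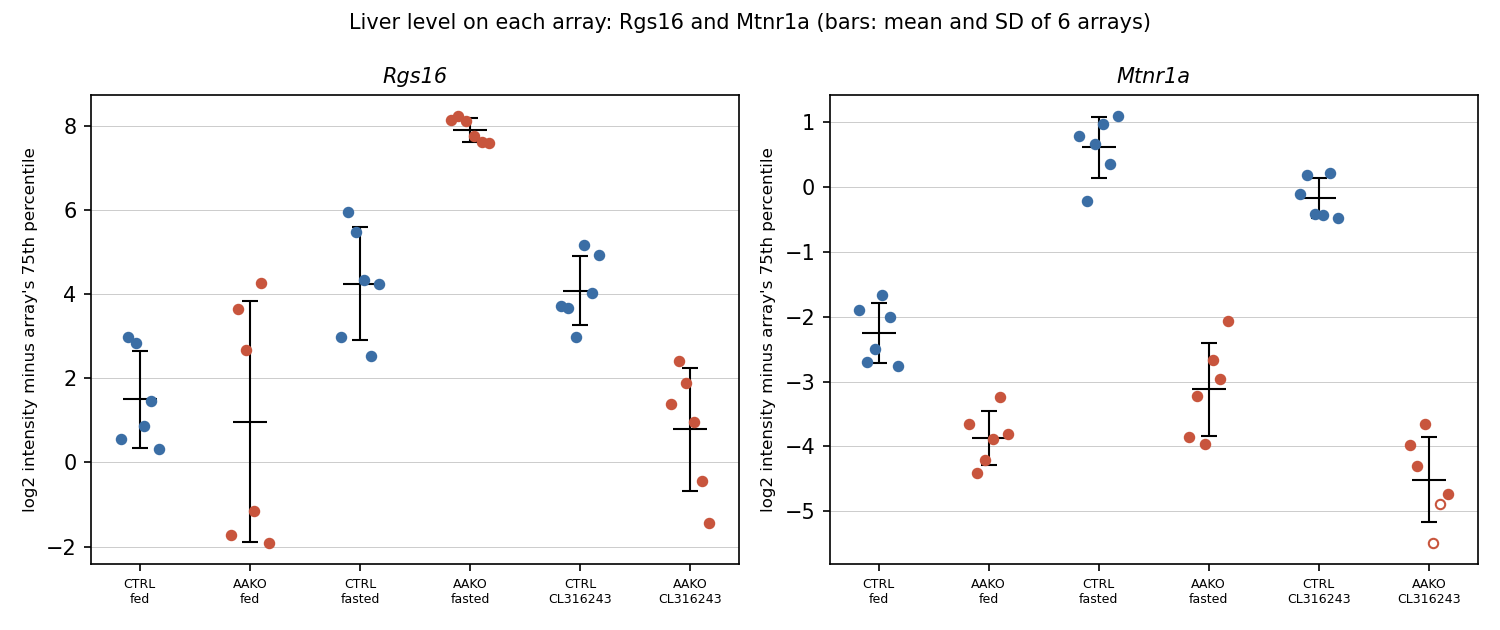
Level of Rgs16 (left) and Mtnr1a (right) on each of 36 liver arrays, as log2 intensity minus the array's 75th percentile; points are arrays (blue CTRL, red AAKO, open where the probe was not well above background), and bars give mean and SD. AAKO fasted arrays lie between 7.58 and 8.22 for Rgs16, above all others, and Mtnr1a is lower in AAKO than in CTRL under each condition without overlap.

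In fed mice the Mtnr1a difference was -1.61 ± 0.30 (3.06-fold lower in AAKO, adjusted p = 0.014). It was the single call among the 10 listed genes, where 0.0788% of all genes were called. In fasted mice it was -3.72 ± 0.30 (13.2-fold lower, adjusted p = 1.05e-11). After CL316243 it was -4.36 ± 0.30, or 20.5-fold lower, with 4 of 6 AAKO arrays well above background, and this value is a description because it chose the gene. The fasting response differed between genotypes: fasted CTRL mice were 2.86 ± 0.30 above fed CTRL mice (adjusted p = 2.59e-09), fasted AAKO mice 0.75 ± 0.30 above fed AAKO mice (adjusted p = 0.0278), and the interaction was -2.11 ± 0.42 (adjusted p = 0.000196). Within wash batches 1 and 2, processing groups given in the labels, the fed difference was -1.49 (adjusted p = 1) and -1.74 (adjusted p = 0.334). The call in fed mice did not hold without CTRL fed replicate 1 (adjusted p = 0.0688) or without CTRL fed replicate 5 (adjusted p = 0.0548), and the rise in AAKO mice was lost without any 1 of 5 arrays, AAKO fasted replicates 4, 5 and 6 and AAKO fed replicates 2 and 3 (adjusted p from 0.0533 to 0.107). Without CTRL fasted replicate 2 the genotype difference in fasted mice was -3.88, the CTRL response to fasting 3.01 and the interaction -2.26, all called. With normexp background correction and quantile normalization the fed difference was -0.59 (adjusted p = 0.0822). By the same correction the fasted difference was -2.36 (adjusted p = 8.94e-15) and that with CL316243 was -2.08.

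The other probes of Mtnr1a were dimmer, and their genotype differences pointed the same way. The second probe (46173309 to 46173368) was well above background on 6 of 6 arrays of each CTRL group, but on 1 AAKO fed, 2 AAKO fasted and 0 AAKO CL316243 arrays. Its CTRL CL316243 mean was -2.55, against a measured -6.48 in AAKO, which makes CTRL at least 6.1-fold higher when the AAKO mean is replaced, array by array, with the higher of its own value and the lowest signal among probes well above background. The third probe (46172616 to 46172675) was not well above background on any AAKO array, and CTRL was at least 4.14-fold higher in fasted and at least 1.99-fold higher in CL316243-treated mice. Both probes passed the filter through CTRL groups alone, so these bounds are descriptions and not separate evidence. Those after CL316243 read again the difference that chose the gene. In fed mice the second probe gave -1.35 ± 0.36 (adjusted p = 0.248 over all probes) and the third, seen on 1 of 6 CTRL fed arrays, gave -0.52 ± 0.36 (adjusted p = 0.851), so the call in fed mice was made by the brightest probe alone. For fasting against feeding in AAKO mice the second probe gave -0.30 ± 0.36 (adjusted p = 0.476) and the third -0.31 ± 0.36 (adjusted p = 0.455). The AAKO rise was thus also read by the brightest probe alone, and the others were dim there.

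**Figure D2:**
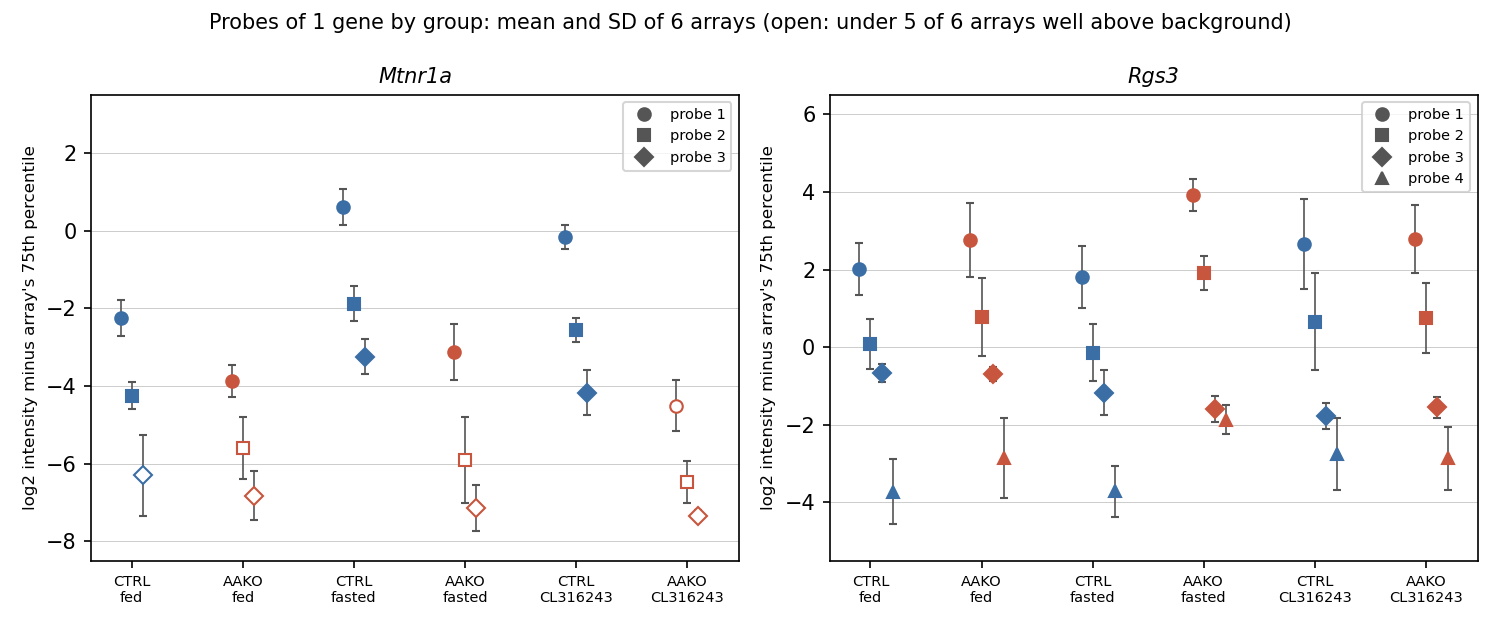
Mean and SD over 6 arrays of each Mtnr1a probe (left, 3 probes) and of the 4 Rgs3 probes that passed the filter (right), by group (blue CTRL, red AAKO), as log2 intensity minus the array's 75th percentile; open symbols mark groups with fewer than 5 of 6 arrays well above background. All Mtnr1a probes are lower in AAKO fasted than in CTRL fasted mice, while Rgs3 probes 1, 2 and 4 are higher there and probe 3 is not.

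Other genes of melatonin synthesis and binding were read from a list. Of 5 that passed the filter (Mtnr1b, the second melatonin receptor; Gpr50, a related orphan receptor; Aanat and Asmt, the enzymes that make melatonin; Nqo2, a quinone reductase that binds it), 1 was called between genotypes. Nqo2 was higher in fasted AAKO mice by 0.28 ± 0.11 (adjusted p = 0.0401). The fasted difference of Mtnr1b was 0.28 ± 0.21 (adjusted p = 0.277), and with CL316243 it was -0.03 ± 0.21 (adjusted p = 0.932). The 5 genes with the highest correlation with Mtnr1a over the 36 arrays were Lgals4 and Lgals6 (r = 0.950 each; closely similar galectin genes whose probes may read each other), Abcb4, the phospholipid exporter of bile (r = 0.937), Lamb3, a laminin chain (r = 0.924), and Xrcc3, a DNA repair gene (r = 0.910). All of these arrays share the group differences. Over deviations from the fitted group means the highest were Slc18b1 (r = 0.686), Hunk (r = 0.665) and Lgals4 (r = 0.659).

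Rgs16 gave opposite genotype differences in the fasted and the CL316243-treated mice. CTRL values were 0.33, 0.55, 0.87, 1.47, 2.84 and 2.97 when fed, 2.52, 2.98, 4.23, 4.33, 5.48 and 5.94 when fasted, and 2.98, 3.66, 3.71, 4.02, 4.93 and 5.16 after CL316243. AAKO values were -1.90, -1.72, -1.15, 2.67, 3.65 and 4.26 when fed, 7.58, 7.60, 7.76, 8.11, 8.14 and 8.22 when fasted, and -1.43, -0.45, 0.96, 1.38, 1.89 and 2.41 after CL316243. All fasted AAKO arrays lay above all other arrays, all AAKO CL316243 arrays lay below all CTRL CL316243 arrays, and the fed AAKO arrays fell into 3 low and 3 high values with none between -1.15 and 2.67. The probe lies at 155592497 to 155592556 on chromosome 1 (mm9), and no other probe carried the symbol.

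In order, the means of Rgs16 were 7.90 ± 0.29 in AAKO fasted, 4.24 ± 1.34 in CTRL fasted, 4.08 ± 0.82 in CTRL CL316243, 1.5 ± 1.15 in CTRL fed, 0.97 ± 2.86 in AAKO fed and 0.79 ± 1.46 in AAKO CL316243 (SD, n = 6 each). Below AAKO fasted, the arrays of AAKO fed, from -1.90 to 4.26, overlapped those of each of the other 4 groups. CTRL fasted overlapped CTRL CL316243 and CTRL fed, and CTRL fed overlapped AAKO CL316243. Fasted AAKO mice exceeded fasted CTRL mice by 3.66 ± 0.86 (12.6-fold), and the difference after CL316243 was -3.36 ± 0.86 (10.3-fold lower in AAKO). The difference between those differences was 7.02 ± 1.22. Without CTRL fasted replicate 2, the highest of its group, the fasted difference was 4.05, and within wash batches 1 and 2 it was 3.89 and 3.42. These values chose the gene and carry no test.

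Only the comparison of fed mice was tested for Rgs16, and it was not called (-0.54 ± 0.86, adjusted p = 0.936). The spread of this gene within groups was large: its residual SD of 1.54 stood at the 99.7th percentile of all tested genes. The exception was AAKO fasted, with a range of 7.58 to 8.22. Over the 36 arrays the genes most correlated with Rgs16 were Angptl4, an inhibitor of lipoprotein lipase (r = 0.923), Sun2, a nuclear envelope protein (r = 0.905), Dnmbp (r = 0.889) and Ppargc1b, a transcriptional coactivator (r = 0.888), together with a transcribed region of chromosome 1 that the files name by coordinates (r = 0.892). Angptl4 was also among the 5 highest over deviations from the fitted group means (r = 0.743), with Ugt1a10 (r = 0.754, in a cluster of genes that share exons), Gprin3 (r = 0.744), Gys2, the liver glycogen synthase (r = 0.741), and Bri3 (r = 0.727). Rgs16 and Mtnr1a themselves had r = 0.285 over levels and r = -0.0938 over deviations.

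Rgs1, Rgs2 and Rgs3 were the listed genes called higher in fasted AAKO than in fasted CTRL liver. With Mtnr1a these made 4 calls among 9 genes tested in fasted mice, where 49.2% of all genes were called (21.9% higher and 27.3% lower), so the share of calls was near that of the array. The median difference over the 10 genes was 0.40, against -0.03 over all genes. The first median includes Rgs16, whose fasted difference was not tested because it chose the gene. All 10 genes were chosen by values already seen on these arrays, so these medians are descriptions and cannot show a shift of the list.

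Rgs2, a regulator known for its preference for Gq, was called between genotypes in fasted mice and not in the other conditions. Fasted AAKO arrays lay between 2.24 and 3.84 (median 3.53), and fasted CTRL arrays between 0.03 and 2.04 (median 0.72). The groups did not overlap, and the fasted AAKO arrays also lay above all arrays of the other 4 groups, which reached from -0.18 to 1.66. The difference was 2.48 ± 0.29 (5.57-fold, adjusted p = 1.83e-08). It was 0.41 ± 0.29 in fed mice (adjusted p = 0.824) and 0.32 ± 0.29 after CL316243 (adjusted p = 0.469). The genotype difference was larger in fasted than in fed mice by 2.07 ± 0.41 (adjusted p = 0.000181) and than in CL316243-treated mice by 2.16 ± 0.41 (adjusted p = 0.000125). Without CTRL fasted replicate 2 these were 2.30 and 2.40, both called. The brightest probe lies at 145848830 to 145848889 on chromosome 1 (mm9), and the second probe passed no filter, with 2 arrays well above background, both AAKO fasted.

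Rgs3, which acts on Gi and Gq and is made in several transcript forms, differed by 2.12 ± 0.47 in fasted mice (4.35-fold higher in AAKO, adjusted p = 0.000347). Fasted AAKO arrays lay between 3.42 and 4.41 (median 3.94) and fasted CTRL arrays between 0.94 and 3.15 (median 1.66), without overlap. Fed arrays lay between 1.22 and 2.74 in CTRL and between 1.99 and 4.31 in AAKO mice, and CL316243 arrays between 1.11 and 3.67 in CTRL and between 1.99 and 3.99 in AAKO mice. The genotypes overlapped in both of these conditions. The genotype difference was larger in fasted than in CL316243-treated mice by 1.96 ± 0.67 (adjusted p = 0.0236), a call lost without CTRL CL316243 replicate 2 (1.72, adjusted p = 0.0516) and within wash batches 1 and 2 (1.97 and 1.98, adjusted p = 0.0748 and 0.252). It was 2.22 without CTRL fasted replicate 2 (adjusted p = 0.00895). The difference from fed mice was not called (1.36 ± 0.66, adjusted p = 0.117).

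The Rgs3 probes disagreed, and they differ both in the assigned transcript and in position. Probes 1, 2 and 4, which the files assign to transcript NM_134257 and place between 62361410 and 62364052 on chromosome 4 (mm9), gave 2.12 ± 0.47, 2.06 ± 0.48 and 1.85 ± 0.44 in fasted mice (adjusted p over all probes of 0.000342, 0.000636 and 0.000765). Probe 3, assigned to NM_019492 and placed at 62320777 to 62320836, gave -0.43 ± 0.20 (adjusted p = 0.078). The increase was thus read by probes 1, 2 and 4. Assigned transcript and position of the probes cannot be told apart here, and the difference between probes was not tested.

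Rgs1, best known from lymphocytes, where it damps chemokine receptor signalling, was higher in AAKO mice both after fasting and after CL316243. Fasted values lay between -0.57 and 0.19 in AAKO (median -0.04) and between -2.05 and -0.18 in CTRL mice (median -1.50). After CL316243 they lay between -3.64 and -1.22 in AAKO (median -2.77) and between -5.26 and -3.32 in CTRL mice (median -4.04, with 4 of 6 arrays well above background). The genotypes overlapped in both conditions, by 1 CTRL array after fasting. The fasted difference was 1.21 ± 0.36 (2.31-fold, adjusted p = 0.00594). With CL316243 it was 1.59 ± 0.36 (3.01-fold, adjusted p = 0.00139). After CL316243 the difference was 2.69 within wash batch 1 and 0.01 within wash batch 2 (adjusted p = 0.996), which holds 2 AAKO arrays, and it was 0.46 with normexp correction (adjusted p = 0.0412). The fed difference of 0.60 ± 0.36 was not called (adjusted p = 0.797), and the genotype effect on Rgs1 gave no call for a difference between conditions. Fasting gave higher Rgs1 than CL316243 in both genotypes, by 2.90 ± 0.36 in CTRL (adjusted p = 1.42e-07) and 2.52 ± 0.36 in AAKO (adjusted p = 4.26e-07), and the CTRL value was 2.67 without CTRL fasted replicate 2. Its probe lies at 146091962 to 146092021 on chromosome 1 (mm9).

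Markers of neutrophils were read beside these 3 genes. Of 8 such markers, 5 were called higher in fasted AAKO than in fasted CTRL liver and 0 lower (median difference 2.16), and their summed signal, in multiples of the 75th percentile, lay between 9.53 and 126 in AAKO fasted and between 1.5 and 80.7 in CTRL fasted arrays. Among these markers Ngp and Ltf were well above background on 2 of 6 CTRL fasted arrays. The value of 80.7 was that of CTRL fasted replicate 2, which also had the highest Rgs1 (-0.18), Rgs2 (2.04), Rgs3 (3.15) and Rgs16 (5.94) of its group, and the next highest neutrophil sum there was 12.1. Without this array the fasted differences were 1.43 for Rgs1, 2.71 for Rgs2 and 2.37 for Rgs3, each still called. In fed AAKO mice the highest neutrophil sums, 48.2 and 16.6, came from replicates 6 and 1. These arrays had the highest Rgs3 values of their group, 3.55 and 4.31, and the lowest Rgs16 values, -1.9 and -1.72. Replicate 1, with 16.6, also had the lowest Rgs1 (-2.92). Among AAKO fasted arrays the neutrophil sum was highest in replicate 1 (126) and lowest in replicate 6 (9.53). Their values were 0 and -0.57 for Rgs1, 3.13 and 3.46 for Rgs2, and 3.63 and 4.2 for Rgs3. Of 8 Kupffer cell markers, 1 was called higher in fasted AAKO liver, and of 9 lymphocyte markers 2 were called lower. Of 8 endothelial markers, 2 were called higher and 0 lower in AAKO liver both after fasting and after CL316243. Their differences lay from -0.15 to 1.83 after fasting (median 0.31) and from 0.16 to 0.99 after CL316243 (median 0.28). The marker counts of this paragraph are to be read against all genes. Of these, 21.9% were called higher and 27.3% lower in fasted AAKO mice, and 24.6% in either direction after CL316243. The endothelial sum lay between 33.5 and 69.7 in CTRL fasted, 55.4 and 72.7 in AAKO fasted, 28.9 and 56.4 in CTRL CL316243, and 42.1 and 64 in AAKO CL316243 arrays. Of 10 stellate cell markers 4 were called higher and 1 lower in fasted AAKO liver, and of 4 platelet markers 1 was called higher. After CL316243 the median difference was 1.08 for neutrophil, 0.30 for Kupffer cell, 0.02 for lymphocyte, 0.03 for stellate cell and 0.29 for platelet markers. Of 4 adipocyte markers, 1 was called higher and 2 lower in fasted AAKO liver (median -0.42), and 0 higher and 1 lower after CL316243 (median 0.02). The adipocyte sum lay between 25.2 and 209 in CTRL fasted and 10.5 and 52.9 in AAKO fasted arrays. After CL316243 it lay between 3.35 and 14.1 in CTRL and 1.59 and 2.25 in AAKO arrays. The part of these cells in the results was not tested.

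**Figure D3:**
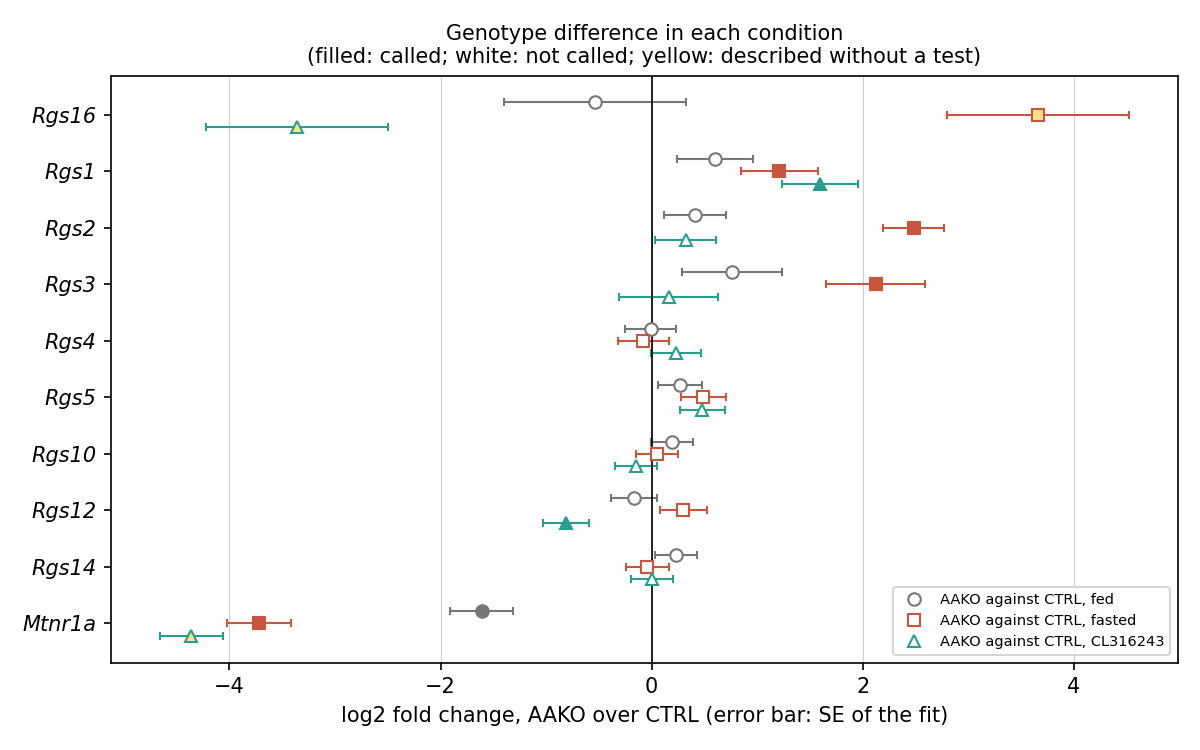
Log2 fold change of AAKO over CTRL with its SE for each gene in fed (grey circles), fasted (red squares) and CL316243-treated mice (green triangles); filled symbols were called, white symbols were not, and yellow symbols are described without a test. Rgs2 and Rgs3 are called in fasted mice, Rgs1 in fasted and CL316243-treated mice, Rgs12 after CL316243, and Mtnr1a in fed and fasted mice.

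After CL316243, 2 of 8 genes tested were called between genotypes, where 24.6% of all genes were called: Rgs1, described above, and Rgs12. Rgs12, a large scaffold protein that binds α subunits through a second domain, differed by -0.81 ± 0.22 (1.75-fold lower in AAKO, adjusted p = 0.00638). CTRL values lay between 0.58 and 1.60 (median 1.39) and AAKO values between -0.25 and 1.01 (median 0.50), with overlap. The genotype difference was higher in fasted than in CL316243-treated mice by 1.11 ± 0.31 (adjusted p = 0.00621), and by 1.13 without CTRL fasted replicate 2. The second probe gave -0.45 ± 0.20 after CL316243 (adjusted p = 0.11) and 0.91 ± 0.29 for the difference between conditions (adjusted p = 0.014). Fitted on the 12 arrays of this comparison alone, the difference after CL316243 was not called (-0.80, adjusted p = 0.0659), nor was it within wash batches 1 and 2 (-0.76 and -0.85, adjusted p = 0.147 and 0.116). The brightest probe lies at 35376032 to 35376091 on chromosome 5 (mm9).

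Over the difference of genotype effects between fasting and CL316243, 3 of 8 genes tested were called, Rgs2, Rgs3 and Rgs12, all higher, where 31.8% of all genes were called in either direction and 13.3% higher. Over the fasting interaction 2 of 9 were called, Rgs2 higher and Mtnr1a lower, against 33.6% of all genes. Over the CL316243 interaction 0 of 8 were called by limma, against 10.9% of all genes, with 1 of 8 (Rgs12) at an unadjusted p under 0.05, and the count was also 0 under each alternative that was run.

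Rgs5, Rgs4 and Rgs10 followed the condition rather than the genotype in their calls. Rgs5, a marker of pericytes and vascular smooth muscle, was higher in fasted than in CL316243-treated mice by 1.35 ± 0.21 in CTRL (adjusted p = 6.16e-06) and 1.36 ± 0.21 in AAKO (adjusted p = 1.79e-06), and the genotype effects differed by 0.01 ± 0.30 (adjusted p = 0.984). The CTRL value was 1.23 without CTRL fasted replicate 2. Fasted arrays lay between 0.21 and 1.40 in CTRL and 0.79 and 1.67 in AAKO mice, and CL316243 arrays between -1.03 and -0.16 in CTRL and -0.60 and 0.91 in AAKO mice. The conditions overlapped in AAKO mice through 1 CL316243 array, replicate 6 at 0.91. Between genotypes Rgs5 was just outside the threshold in fasted mice (0.49 ± 0.21, adjusted p = 0.0561). That difference was called without any 1 of 4 arrays, AAKO fasted replicate 6 and CTRL fasted replicates 2, 3 and 5 (adjusted p from 0.018 to 0.0494). After CL316243 it was 0.48 ± 0.21 (adjusted p = 0.103), and 0.60 with a call without AAKO CL316243 replicate 4 (adjusted p = 0.0468). Of 10 stellate cell markers, 5 were called higher and 1 lower in fasted than in CL316243-treated CTRL mice, and 5 higher and 2 lower in AAKO mice. Their summed signal lay between 161 and 200 in CTRL fasted, 201 and 255 in AAKO fasted, 80.5 and 128 in CTRL CL316243, and 97.7 and 138 in AAKO CL316243 arrays. Of 8 endothelial markers, 5 were called higher and 0 lower in CTRL mice and 5 higher and 1 lower in AAKO mice, with the sums given above. Of all genes, 37.1% were called in CTRL and 60% in AAKO mice in this comparison, in either direction. The part of stellate and endothelial cells in the Rgs5 result was not tested.

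Across the comparison of fasting with CL316243, 4 of 8 genes were called in CTRL mice (Rgs1, Rgs4 and Rgs5 higher, Rgs12 lower), where 37.1% of all genes were called, and 4 of 8 in AAKO mice (Rgs1, Rgs2, Rgs3 and Rgs5 higher), where 60% were (25.9% higher). The Rgs12 difference in CTRL mice was -1.01 ± 0.22 (adjusted p = 0.000393), and -1.04 without CTRL fasted replicate 2. The groups met at 0.58 without crossing. The probes of Rgs12 disagreed between conditions: the second probe gave 0.44 ± 0.20 here (adjusted p = 0.0853 over all probes). In AAKO mice it gave 1.36 ± 0.20 (adjusted p = 7.93e-07), where the brightest probe gave 0.09 ± 0.22 (adjusted p = 0.733). The Rgs3 call in AAKO mice (1.11 ± 0.47, adjusted p = 0.0436) was lost without any 1 of 8 of the 12 arrays (AAKO CL316243 replicates 1, 3, 5 and 6, AAKO fasted replicates 3, 4, 5 and 6). Rgs4, known mostly from brain and heart, was 0.73 ± 0.24 higher in fasted CTRL mice (adjusted p = 0.016), which did not hold without CTRL fasted replicate 2 (0.61, adjusted p = 0.055), CTRL CL316243 replicate 4 (0.61, adjusted p = 0.0534) or replicate 5 (0.57, adjusted p = 0.0623).

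**Figure D4:**
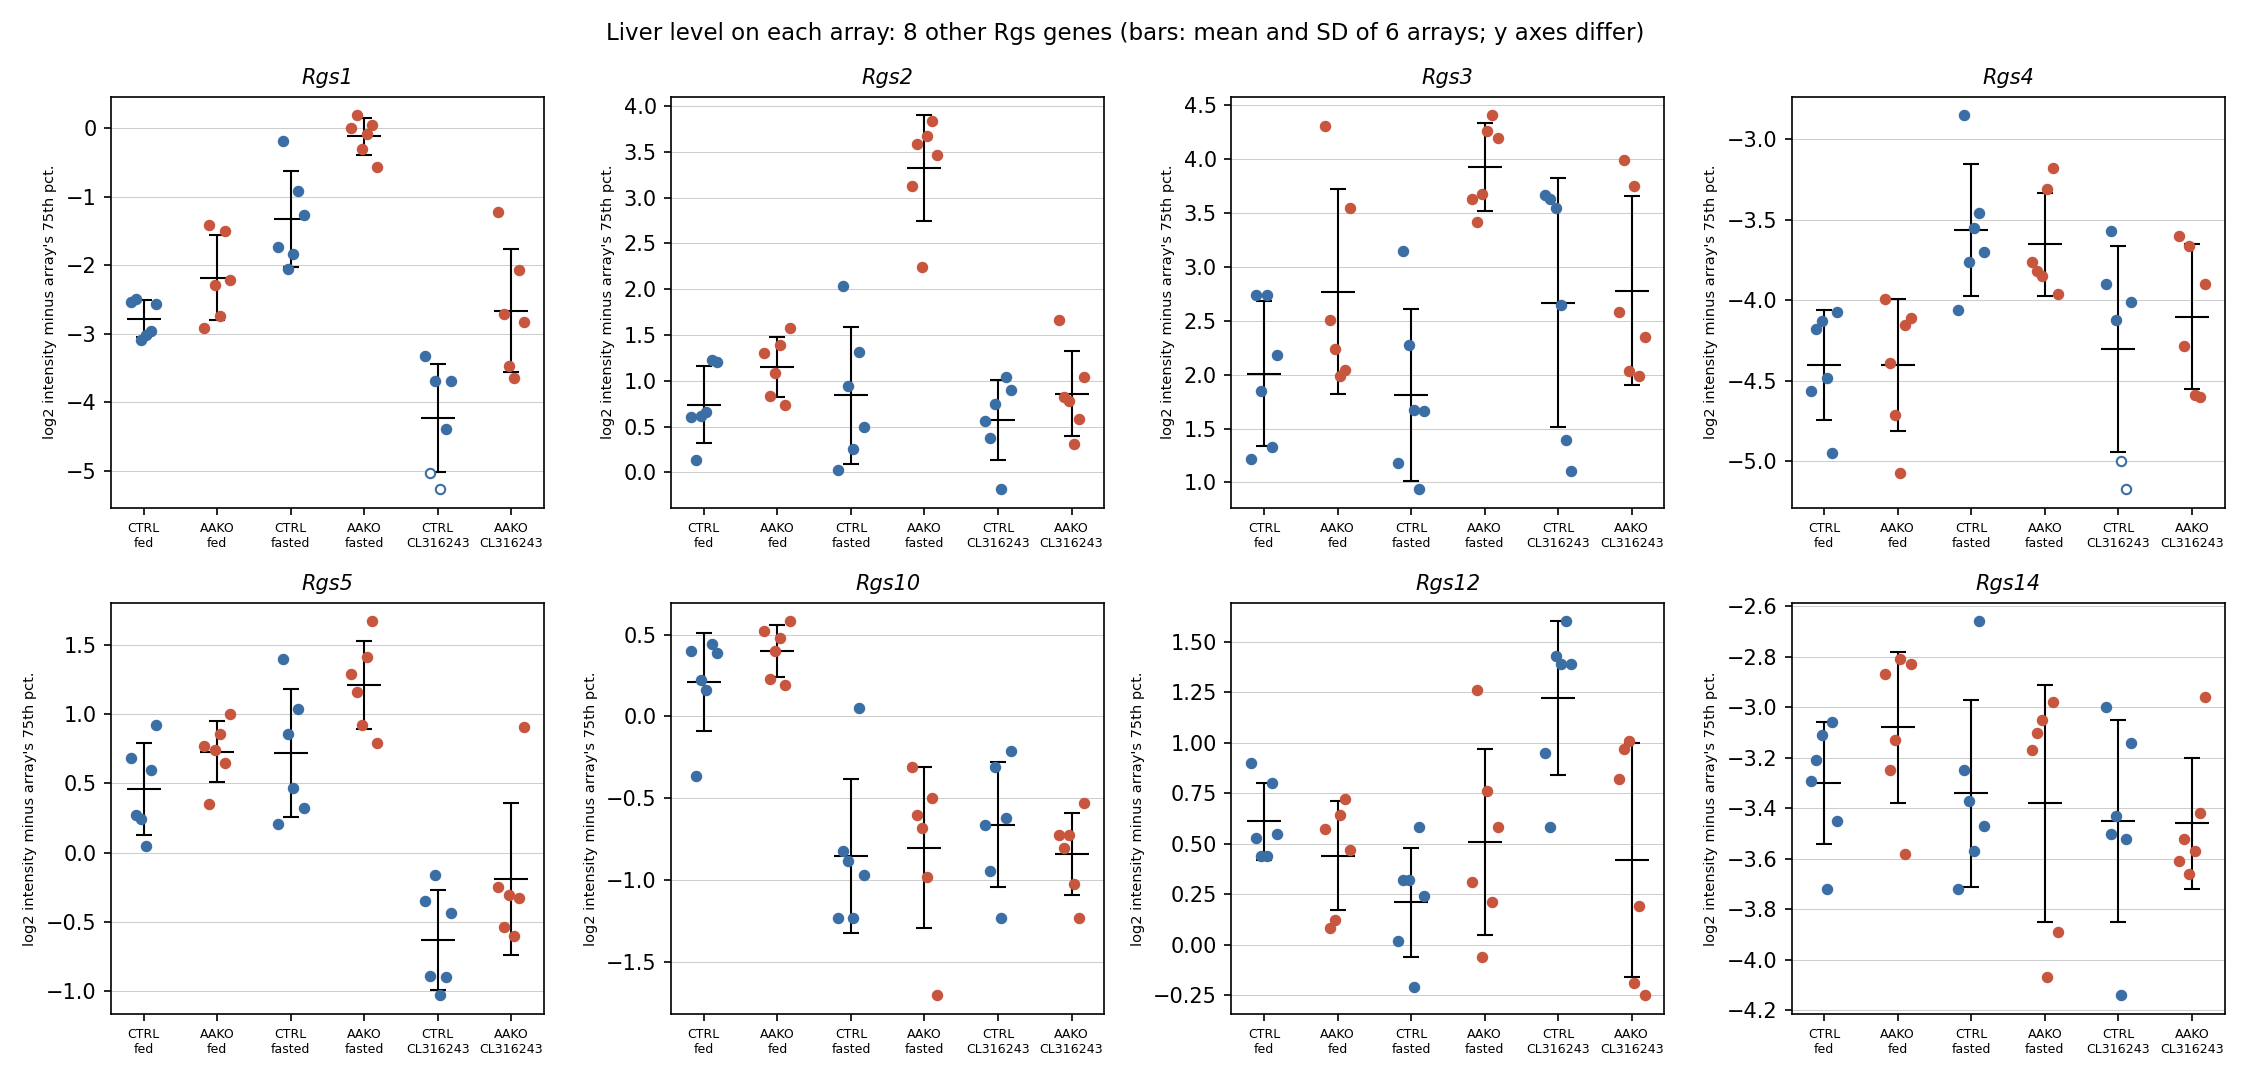
Level of each of 8 Rgs genes on 36 liver arrays, as log2 intensity minus the array's 75th percentile, with the mean and SD of 6 arrays per group (blue CTRL, red AAKO, open where not well above background); y axes differ between genes. Rgs2 is highest on the AAKO fasted arrays, from 2.24 to 3.84, and Rgs10 is lower on fasted and CL316243 arrays than on most fed arrays in both genotypes.

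Rgs10, a small regulator of Gi that is abundant in immune cells, was lower after fasting and after CL316243 than in fed mice of both genotypes, and its genotype differences (0.19 ± 0.20, 0.05 ± 0.20 and -0.15 ± 0.20 in fed, fasted and CL316243-treated mice) were not called. Fed values lay between -0.36 and 0.44 in CTRL and between 0.19 and 0.58 in AAKO mice. Fasted values lay between -1.23 and 0.05 in CTRL and between -1.70 and -0.31 in AAKO mice, and CL316243 values between -1.23 and -0.21 and between -1.23 and -0.53. Fed and other AAKO arrays did not overlap. The differences from fed were -1.05 ± 0.20 and -1.20 ± 0.20 for fasting (CTRL, AAKO) and -0.87 ± 0.20 and -1.21 ± 0.20 for CL316243, with adjusted p from 4.95e-06 to 0.00186. Of 8 Kupffer cell markers, 2 in CTRL and 4 in AAKO mice were called lower after fasting, and 5 and 7 after CL316243. None was called higher in either, and the medians lay from -1.21 to -0.68. Their summed signal lay between 56 and 129 in CTRL fed, 90.8 and 160 in AAKO fed, 38.6 and 124 in CTRL fasted, 24.4 and 119 in AAKO fasted, 24.7 and 80.4 in CTRL CL316243, and 51.9 and 79.7 in AAKO CL316243 arrays. Of all genes, 43.8% in CTRL and 63.6% in AAKO mice were called after fasting, and 23.1% and 31.4% after CL316243, in either direction. The Kupffer cell counts after fasting were not above these shares, and those after CL316243 were. Of 8 neutrophil markers, 5 were called higher and 0 lower in fasted AAKO mice (median 1.99), and none in the other comparisons with fed mice. Of 9 lymphocyte markers, 2 were higher and 1 lower in fasted CTRL mice, and 2 higher and 3 lower in fasted AAKO mice. The part of Kupffer and other immune cells in the Rgs10 result was not tested. Because the fed mice form another experiment, condition and experiment cannot be told apart here.

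With that limit, fasting against feeding called 4 of 9 genes in CTRL mice (43.8% of all genes) and 7 of 9 in AAKO mice (63.6% of all genes). Rgs1, Rgs4 and Mtnr1a were higher and Rgs10 lower in CTRL mice, and Rgs2, Rgs3 and Rgs5 were called higher as well in AAKO mice. The Mtnr1a call in AAKO mice was made by its brightest probe alone. Rgs2 rose by 2.17 ± 0.29 in AAKO (4.49-fold, adjusted p = 8.08e-08), while in CTRL mice it differed by 0.10 ± 0.29 (adjusted p = 0.808). The Rgs3 (1.16 ± 0.47, adjusted p = 0.0318) and Rgs5 (0.48 ± 0.21, adjusted p = 0.0495) calls lay close to the threshold. Rgs3 probe 3, which differs in assigned transcript and position, was called the opposite way in the same comparison (-0.92 ± 0.20, adjusted p = 0.000172 over all probes). The second Rgs12 probe was called higher after fasting in both genotypes (1.13 ± 0.20 in CTRL and 1.57 ± 0.20 in AAKO), where the brightest was not called. Over the listed genes the count of 7 fell to 4 without some single arrays. CL316243 against feeding called 4 of 8 genes in CTRL mice (23.1% of all genes), with Rgs1, Rgs5 and Rgs10 lower and Rgs12 higher, and 2 of 8 in AAKO mice (31.4% of all genes), Rgs5 and Rgs10, both lower (15.9% of all genes were). Endothelial markers were called lower in these comparisons too, 7 of 8 in CTRL and 5 of 8 in AAKO mice. Rgs3 probe 3 was called lower after CL316243 in both genotypes (-1.11 ± 0.20 and -0.87 ± 0.20), where the brightest probe was not called. The Rgs12 call in CTRL mice (0.61 ± 0.22, adjusted p = 0.0389) was lost without any 1 of 8 arrays (CTRL CL316243 replicates 3 to 6, CTRL fed replicates 2, 3, 4 and 6). Rgs14, another scaffold regulator of the R12 family, gave no call in any of the 12 comparisons, with group means between -3.46 and -3.08.

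Other parts of the same signalling machinery were read from lists. Of the remaining RGS genes that passed the filter, 4 of the R7 family (Rgs6, Rgs7, Rgs9 and Rgs11) and 2 of the RZ family (Rgs19 and Rgs20), only Rgs6 was called between genotypes within a condition, with -0.48 ± 0.14 in fasted mice (lower in AAKO, adjusted p = 0.00495). The other 4 R4 genes on the array (Rgs8, Rgs13, Rgs18 and Rgs21) did not pass the filter. The list counts that follow are to be read against calls for 49.2% of all genes in fasted and 24.6% in CL316243-treated mice. Of 13 α subunit genes, 1 was called higher and 4 lower in fasted AAKO mice. Gnal, an α subunit that activates adenylyl cyclase, was higher by 1.67 ± 0.22 (3.18-fold, adjusted p = 1.66e-07). After CL316243, 1 was called higher and 1 lower, and Gna12 was lower (-1.02 ± 0.10, adjusted p = 6.87e-09).

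Of 14 β and γ subunit genes, 1 was called higher and 4 lower in fasted AAKO mice. Gngt1, the γ subunit known from rod cells, was well above background on 5 of 6 CTRL fasted arrays and on 0 of 6 AAKO fasted arrays. Of 7 receptor kinases and arrestins, which switch off receptors, 3 were called higher and 3 lower in fasted AAKO mice, with Grk3, a receptor kinase, at -1.19 ± 0.25 (adjusted p = 0.000145). After CL316243, 1 was called higher and 0 lower, the receptor kinase Grk6 (0.21 ± 0.07, adjusted p = 0.0184). Among 11 other Gi- and Gq-coupled receptors, 3 were called higher and 3 lower in fasted mice, with F2r, a thrombin receptor, higher by 1.45 ± 0.17 (adjusted p = 2.54e-08), and 1 higher and 5 lower after CL316243, with Adora1, an adenosine receptor, lower (-1.20 ± 0.20, adjusted p = 2.45e-05). Of 6 adenylyl cyclases, 1 was called higher and 2 lower in fasted AAKO mice, and 1 higher and 3 lower after CL316243. The higher one was Adcy1, a calcium-stimulated cyclase. Every AAKO array in both conditions read it well above background (6 of 6 each), against 1 of 6 CTRL fasted and 3 of 6 CTRL CL316243 arrays, so it passed the filter through the AAKO groups and no fold is given.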

How the data were processed

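Each liver gave 1 single-colour array. The deposited scanner files hold spot intensity values from Agilent's Feature Extraction software (version 10.10.1.1 in the submitters' processing notes). Per the file headers, spatial detrending, multiplicative detrending and surrogate values for dim spots were switched on for the processed signal. Marks of 0 or 1 for signal well above background and for outlying spots, also deposited, are per the file headers. A table of log2 values deposited by the authors, of unstated normalization, served as an alternative. Probe coordinates are those of the files (mm9).

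From the processed signal, outlying spots were left out, spots of a probe were averaged, and log2 values were centred on the 75th percentile of each array. Probes were named through RefSeq accessions where the table held them. A gene was represented by its brightest probe, and was tested where 5 or more of the 6 arrays of any group read that probe well above background. With limma 3.58.1 in R 4.3.3, 1 linear model with 6 group means and the wash batch was fitted to 36 arrays, with eBayes, two-sided tests and Benjamini-Hochberg adjustment over 24097 genes in each of 12 contrasts. The model was tested on simulated data. The number of arrays limits the precision. All 10 genes are named. Of each pathway list, the called gene with the largest change in each comparison of genotypes within a condition was named, and the 5 genes most correlated with Rgs16 and Mtnr1a. The listed genes, the pathway and marker lists and the tests were chosen with earlier results of these data known, so calls among them are not independent evidence. Alternatives were normexp background correction with quantile normalization, quantile normalization, the authors' table, other probe rules, no filter, other batch terms, 1 wash batch alone, and leaving out each array. The labels do not say that mice of a group came from separate litters or cages. Protein sequences were not used here.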

Additional observations from a re-analysis of the deposited data

Results flagged for a closer look

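Among 60 sets of 6 arrays (10 genes in 6 groups), 4 held an array far from the others, where chance alone gives about 1 in 20. For Rgs5 it was AAKO CL316243 replicate 6, at 0.91, with the nearest other array at -0.25. For Rgs14 it was the same array, at -2.96, against -3.42. For Rgs10 it was CTRL fed replicate 2, at -0.36 against 0.16, and CTRL fasted replicate 5, at 0.05 against -0.82.

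The genotype difference changed with the condition for 5 genes. For Rgs2 it was larger in fasted than in fed mice by 2.07 and than in CL316243-treated mice by 2.16, and the fit called both. For Rgs3 and Rgs12 it was higher in fasted than in CL316243-treated mice by 1.96 and 1.11, both called. For Mtnr1a it was more negative in fasted than in fed mice (-2.11, called). For Rgs16 the 2 genotype differences had opposite signs with no overlap of arrays in either condition and lay 7.02 apart, which was not tested because the gene was chosen for it.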

How the results depend on the processing

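No result reversed its direction among called values under the alternatives that were run. The counts of listed genes called changed as follows. Within wash batch 1 alone, with fewer arrays, the count was 2 for fasting against CL316243 in CTRL mice, 4 for fasting against feeding in AAKO mice and 2 in CTRL mice, 2 for CL316243 against feeding in CTRL mice, 1 for the genotype difference between fasting and CL316243, and 0 between genotypes in fed mice. Within wash batch 2 alone it was 0 between genotypes after CL316243 and in fed mice, 4 for fasting against feeding in AAKO mice, 2 for CL316243 against feeding in CTRL mice and 1 for the fasting interaction. With only the arrays of a comparison in the fit it was 1 between genotypes after CL316243 and 0 in fed mice. With the mean of all probes of a gene it was 0 in fed mice and 4 for fasting against feeding in AAKO mice, and with normexp correction 0 in fed mice. The cause was not tested, beyond the smaller number of arrays within a batch. Leaving out each array in turn gave between 0 and 1 calls in fed mice and between 4 and 7 for fasting against feeding in AAKO mice.

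With the replicate number as a block (replicate block) the counts were 1 in fed, 4 in fasted and 2 in CL316243-treated mice between genotypes, 6 for fasting against feeding in AAKO mice and 3 for CL316243 against feeding in CTRL mice, where Rgs5 (adjusted p = 0.055) and Rgs12 (adjusted p = 0.0576) were not called. The numbers did not pair the arrays: of 90 pairs with the same number 16 had a correlation of deviations over 0.1 (range of all pairs from -0.304 to 0.361). The mean correlation with arrays of other groups was highest for the own number in 4 of 36 arrays. The Mtnr1a difference between fasting and CL316243 in its genotype effect, described without a test, was 0.63, and -0.28 with normexp correction. Dim signal limits Mtnr1a in AAKO mice and Rgs1 and Rgs4 in CTRL CL316243 mice, where 4 of 6 arrays were well above background.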
